A study of Mus musculus with 30 samples.

Results

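Transcripts of the Hippo pathway and of the transcription factors it controls were examined in C2C12 myotubes deprived of serum, with and without metformin and leucine. The 9 genes were taken as a list of symbols, with no measured value in the rule, and were found among the 55487 genes of the count table: Yap1, Wwtr1, Tead1, Tead4, Lats2, Ccn1, Ccn2, Ankrd1 and Amotl2. All 9 passed the filter on low counts that left 15907 genes for testing. C2C12 is an established line of mouse myoblasts that fuse into multinucleated myotubes, and all libraries came from wild-type cells. After 4 days of differentiation in 2% horse serum, 6 libraries came from myotubes kept in 2% horse serum for a further 4 days (2% HS) and 6 from myotubes deprived of serum for those 4 days (SD). The other groups of 6 were deprived of serum in the same way and received 100 nM metformin (MET), 500 nM leucine (LEU) or both at these doses (MET+LEU), so that all 30 libraries were taken on day 8. Nothing in the labels says that replicates were separate cultures, and the p-values then measure only the spread between these libraries, which may be technical. The line is a cultured model with no other cell type of muscle, and no untreated time point from before serum withdrawal was analysed here.

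The Hippo pathway is a kinase cascade in which the MST kinases (Stk3 and Stk4) activate the LATS kinases, which phosphorylate the coactivators YAP (Yap1) and TAZ (Wwtr1) and hold them in the cytoplasm. Unphosphorylated YAP and TAZ enter the nucleus and bind TEAD factors, which recognise a short DNA element known in muscle promoters as the MCAT element. Secreted matricellular proteins (Ccn1, Ccn2), the titin-associated repeat protein Ankrd1 and the angiomotin Amotl2 are well-known targets. The control acts mainly on the proteins, which these RNA data do not measure.

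Since YAP and TAZ act through TEAD factors, the TEAD element was searched in the bases just before the starts of these genes, and capital letters mark it in the following RefSeq sequences (build GRCm38.p6, written 5′ to 3′ on the strand of the gene). The letters searched were GGAATG on both strands, so that CATTCC, its reverse complement, is the same element read from the other strand. Whole windows of 250 bases are shown for 3 targets, and 30 bases around the element for both coactivators.
Ankrd1, chr19:36119845-36120094, minus strand: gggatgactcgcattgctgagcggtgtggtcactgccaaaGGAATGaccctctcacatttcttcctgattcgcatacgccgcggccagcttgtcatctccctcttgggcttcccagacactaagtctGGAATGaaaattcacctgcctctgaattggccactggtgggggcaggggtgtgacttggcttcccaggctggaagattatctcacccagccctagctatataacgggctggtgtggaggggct
Ccn1, chr3:145649986-145650235, minus strand: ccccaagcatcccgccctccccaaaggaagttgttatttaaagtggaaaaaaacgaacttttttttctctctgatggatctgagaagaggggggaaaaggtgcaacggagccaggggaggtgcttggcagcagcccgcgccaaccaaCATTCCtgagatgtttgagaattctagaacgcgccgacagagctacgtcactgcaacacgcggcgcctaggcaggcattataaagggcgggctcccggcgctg
Amotl2, chr9:102717554-102717803, plus strand: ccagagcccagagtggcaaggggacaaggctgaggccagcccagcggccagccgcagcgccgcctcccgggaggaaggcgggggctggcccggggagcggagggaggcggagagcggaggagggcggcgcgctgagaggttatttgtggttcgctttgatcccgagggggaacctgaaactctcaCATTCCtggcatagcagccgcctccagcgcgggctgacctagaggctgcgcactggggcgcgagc
Wwtr1, chr3:57576029-57576058, minus strand: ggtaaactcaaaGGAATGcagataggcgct
Yap1, chr9:8004720-8004749, minus strand: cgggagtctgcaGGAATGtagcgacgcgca

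RefSeq windows were at hand for 6 of the 9 genes (Yap1, Wwtr1, Lats2, Ccn1, Ankrd1 and Amotl2). At least 1 element lay in 5 of these 6, and none lay in either window of Lats2. The share over all genes with such a window was 14.4% (3880 of 27025), and it was 8 of 23 among other Hippo pathway genes and 3 of 11 among other YAP target genes. Ankrd1 held elements that began 210 and 123 bases before its RefSeq start, and Yap1 1 at 141 bases. Wwtr1 held 1 that began 136 or 170 bases upstream, depending on which of its RefSeq starts is counted. In Ccn1 and Amotl2 the element was on the strand opposite to the gene, 103 and 65 bases upstream. The Ankrd1 and Amotl2 windows and both Lats2 windows lay inside the longer genes of the GENCODE annotation. They therefore precede internal starts and not the annotated start of the gene. A match describes these letters only and does not show that a factor was bound. Ccn2, Tead1 and Tead4 were not in the promoter table.

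**Figure D1:**
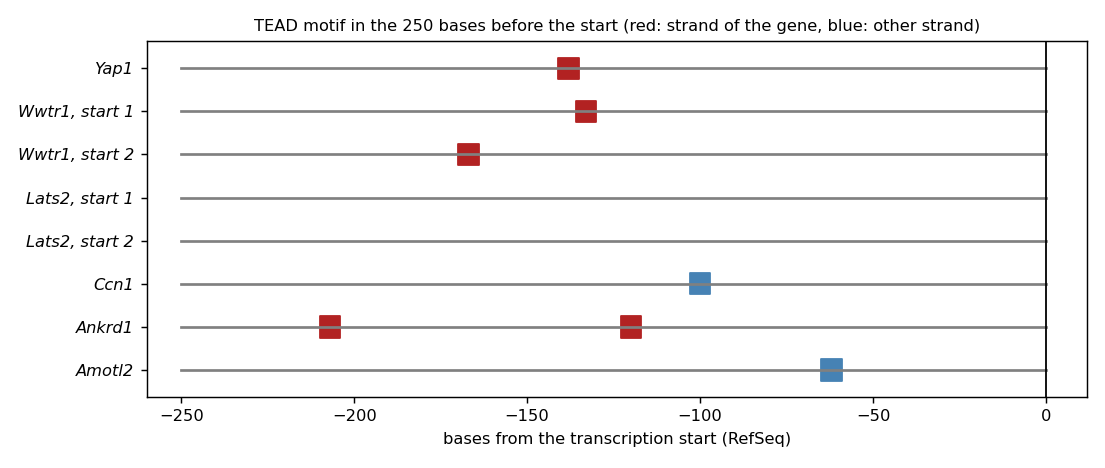
Position of the TEAD element in the 250 bases before each RefSeq start of 6 Hippo pathway and YAP target genes. The horizontal axis is the distance from the start in bases, each grey line is 1 window and each block 1 element of 6 bases (red, on the strand of the gene; blue, on the other strand). Ankrd1 has 2 elements and both Lats2 windows have none.

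Libraries held between 12784960 and 19604103 counts, and each of the 9 genes had at least 638 counts in every library. MET+LEU replicate 6 stood apart, with a scaling factor of 0.803 against 0.968 to 1.03 in the other 29, nuclear ribosomal RNA at 5.85% of its counts (at most 1.96% in the others) and mitochondrial ribosomal RNA at 7.64% (at most 0.760%). For called genes among the 9, results that involve MET+LEU are therefore also given without this library where leaving it out gave the highest or lowest value. Myotube markers were abundant, with Myog at 895 to 1156 CPM (counts scaled to a common library size by edgeR's TMM factors) in the 2% HS, SD and MET+LEU libraries. In SD vs. 2% HS 2 of 12 myotube markers rose and 4 fell, their sum going from 42399 to 45143 CPM down to 34954 to 37568 CPM, with no overlap. All 7 tested fibroblast markers rose, their sum going from 3971 to 4384 CPM up to 6732 to 7147 CPM in the same comparison, although Tcf21 was at 0 counts in all 30 libraries. Of the 10 myoblast and cycling cell markers, 2 rose and 1 fell in this comparison. In MET+LEU vs. SD 8 of these 10 fell, 5 of 12 myotube markers rose, and of the 7 fibroblast markers 2 rose and 3 fell. These counts are at an adjusted p under 0.05 in edgeR. Over all genes tested, 13.9% rose and 13.9% fell in SD vs. 2% HS, and 10.6% rose and 7.8% fell in MET+LEU vs. SD. The part of these marker changes in the results that follow was not tested. In bulk RNA, fewer cells of a kind and less RNA per cell cannot be told apart.

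Per kilobase of exon, Ankrd1 and Ccn1 were the most abundant of the 9 and Yap1 and Lats2 the least. The place of Lats2 below Yap1 is uncertain, since Lats2 reads may be missing from exons that it shares with another gene. In 2% HS the levels were 87.0 ± 4.39 CPM per kilobase for Ankrd1 (± standard deviation, n = 6, here and for every ± value), 77.6 ± 3.20 for Ccn1, 62.7 ± 1.21 for Wwtr1, 53.7 ± 1.28 for Tead4 and 44.8 ± 0.999 for Amotl2. Tead1 at 40.0 ± 1.58, Ccn2 at 38.9 ± 3.20, Yap1 at 12.7 ± 0.721 and Lats2 at 8.14 ± 0.104 CPM per kilobase followed. The ranges of Ankrd1 and Ccn1 overlapped, as did those of Tead1 and Ccn2, and the other neighbours in this order were apart. The order of the means was the same in all 5 groups. In SD the lower end opened up: Tead1 stood at 33.7 ± 2.43 and Ccn2 at 18.5 ± 1.62 CPM per kilobase, with no overlap between their libraries.

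**Figure D2:**
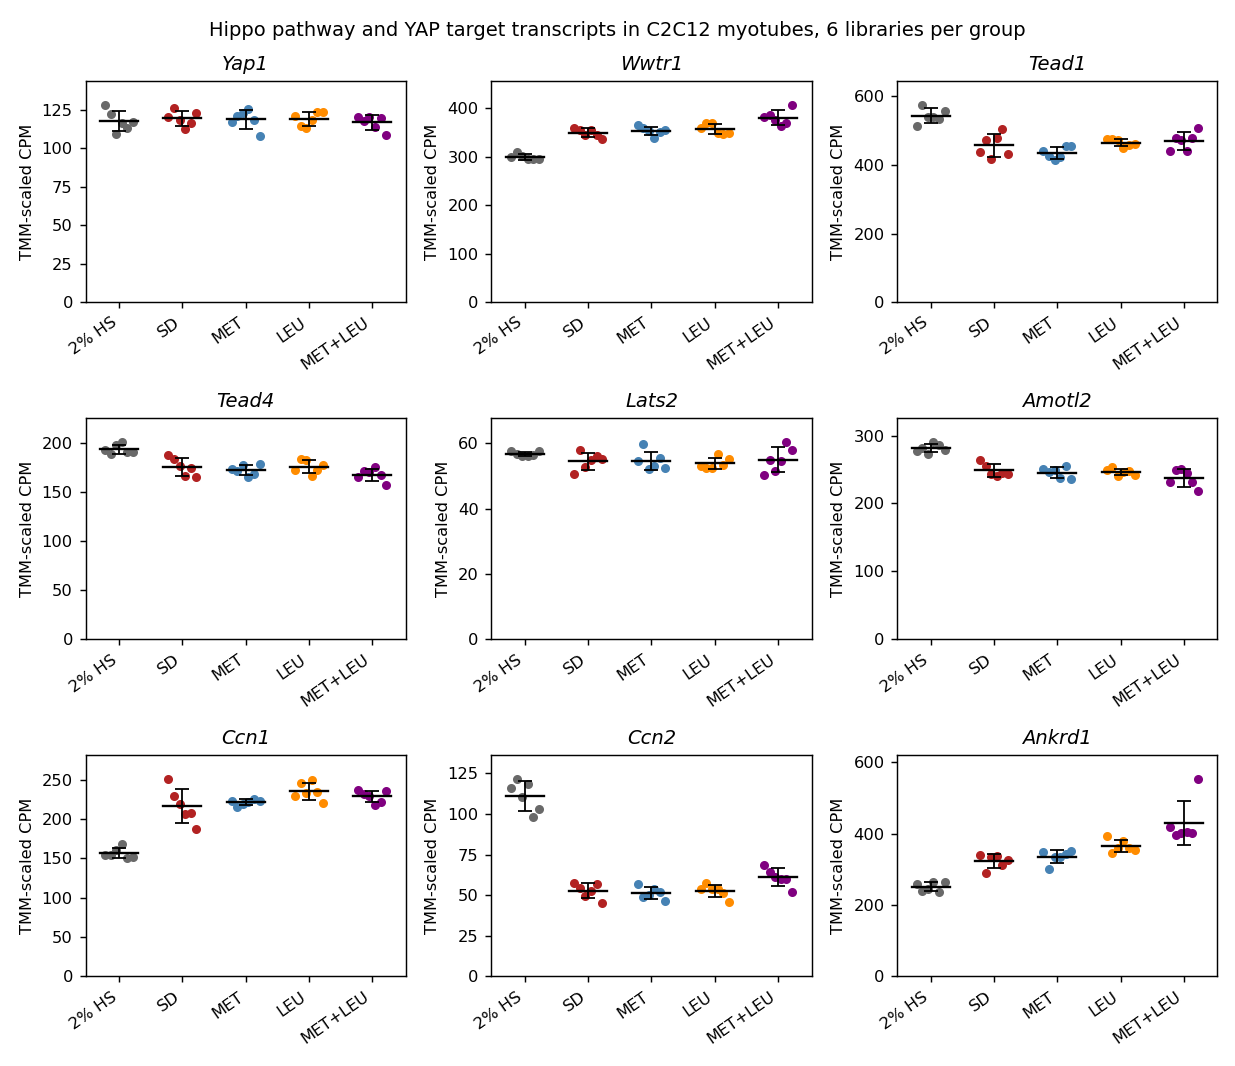
Level of each gene in every library, in TMM-scaled CPM on axes that start at 0, for the 5 groups of 6 libraries in replicate order. Points are libraries, the long bar is the mean and the whiskers are 1 standard deviation. Ccn2 fell from 98.0 to 122 CPM in 2% HS to 45.5 to 57.7 CPM in SD, and Yap1 lay between 108 and 128 CPM in all groups.

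The comparison of SD with 2% HS asks what serum withdrawal did to these transcripts. Ccn2 fell most, Ccn1, Ankrd1 and Wwtr1 rose, and Tead1, Tead4 and Amotl2 fell. So 3 of the 9 genes rose and 4 fell at an adjusted p under 0.05 in edgeR's quasi-likelihood test, adjusted by Benjamini and Hochberg over all 15907 genes (the test and adjustment for every p given here). Of all genes tested, 27.8% passed in this comparison, 13.9% higher and 13.9% lower, with a median log2 fold change of 0.00. The median over the 9 genes was -0.06. All 7 calls held without any single library and under each other scaling, tool or filter tried.

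The coactivators differed from each other. Yap1 (chr9:7931999-8004596, minus strand in GENCODE M21, build GRCm38, as for the other genes) had a lowest, median and highest level of 110, 117 and 128 CPM in 2% HS and of 113, 119 and 126 CPM in SD. The groups overlapped throughout, and the log2 fold change of 0.02 had a 95% interval of -0.06 to 0.10 (adjusted p = 0.759). Wwtr1 (chr3:57455649-57575910, minus strand) had 295, 298 and 310.0 CPM in 2% HS and 336, 350.5 and 360.0 CPM in SD. All 6 SD libraries were above all 2% HS libraries, and Wwtr1 rose by 0.22 on the log2 scale (SE 0.031, adjusted p = 9.07e-08). Wwtr1 made up 83.1% ± 0.741 of the summed Yap1 and Wwtr1 level per kilobase in 2% HS and 85.0% ± 0.645 in SD, so TAZ transcripts outnumbered YAP transcripts in both.

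Both TEAD transcripts of the list fell. Tead1 (chr7:112679318-112906807, plus strand), whose protein binds MCAT elements of muscle genes, had a lowest, median and highest level of 513, 540.4 and 575 CPM in 2% HS and of 418, 455 and 504 CPM in SD. The groups did not overlap, and Tead1 fell by 0.25 on the log2 scale (SE 0.039, adjusted p = 1.40e-06). Tead4 (chr6:128224288-128300823, minus strand), a factor expressed in differentiating myoblasts, went from 189, 191 and 201 CPM to 165, 175 and 187 CPM. The highest SD library was just under the lowest 2% HS library, and Tead4 fell by 0.14 (SE 0.034, adjusted p = 0.00125). The paralogs outside the list did not pass: Tead2 had a log2 fold change of -0.12 (95% interval -0.25 to 0.01) and Tead3 of -0.10 (-0.22 to 0.01). Within the family Tead4 held 49.2% and Tead1 36.7% of the level per kilobase in 2% HS, and 50.4% and 34.9% in SD, with overlapping libraries for both. These shares rest on all annotated exon bases, 13570 for Tead1 and 3598 for Tead4, whichever transcripts were expressed. Before division by length Tead1 was above Tead4, with medians of 540.4 and 191 CPM in 2% HS.

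Lats2 (chr14:57689662-57758388, minus strand), the kinase that phosphorylates YAP and TAZ, did not pass the test. Its 2% HS libraries were close together at 56.1, 56.5 and 57.7 CPM (lowest, median and highest), and the SD libraries at 50.6, 55.0 and 58.0 CPM spread around them. Of the SD libraries, 5 were under all 2% HS libraries and 1 was above them, and the log2 fold change was -0.06 (95% interval -0.15 to 0.03, adjusted p = 0.344). In GENCODE M21 the same-strand gene Gm49361 covers 42.4% of the Lats2 exon bases, and this gene had a median count of 0, so reads in the shared exons may be missing from Lats2 and its level is uncertain. Lats1 had 127 CPM on average in 2% HS and 133 CPM in SD (log2 fold change 0.06, 95% interval -0.02 to 0.14), and the upstream kinase transcripts Stk3 (0.04, -0.10 to 0.18) and Stk4 (0.07, -0.03 to 0.16) did not pass either.

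Amotl2 (chr9:102716672-102733418, plus strand), a junctional scaffold that binds YAP and is also a target of it, had a lowest, median and highest level of 273, 280.4 and 291 CPM in 2% HS and of 241, 244 and 264 CPM in SD. The groups did not overlap, and Amotl2 fell by 0.18 on the log2 scale (SE 0.033, adjusted p = 2.63e-05). All 3 angiomotins fell, and Amotl1 fell most, by 0.64 (SE 0.032, adjusted p = 2.33e-21), with Amot falling by 0.18 (SE 0.043, adjusted p = 0.00139). As a result the share of Amotl2 among the angiomotins, per kilobase, was larger in SD (53.7% ± 0.862) than in 2% HS (47.0% ± 0.604), with no overlap, while that of Amotl1 was 37.5% ± 0.770 against 45.3% ± 0.699.

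**Figure D3:**
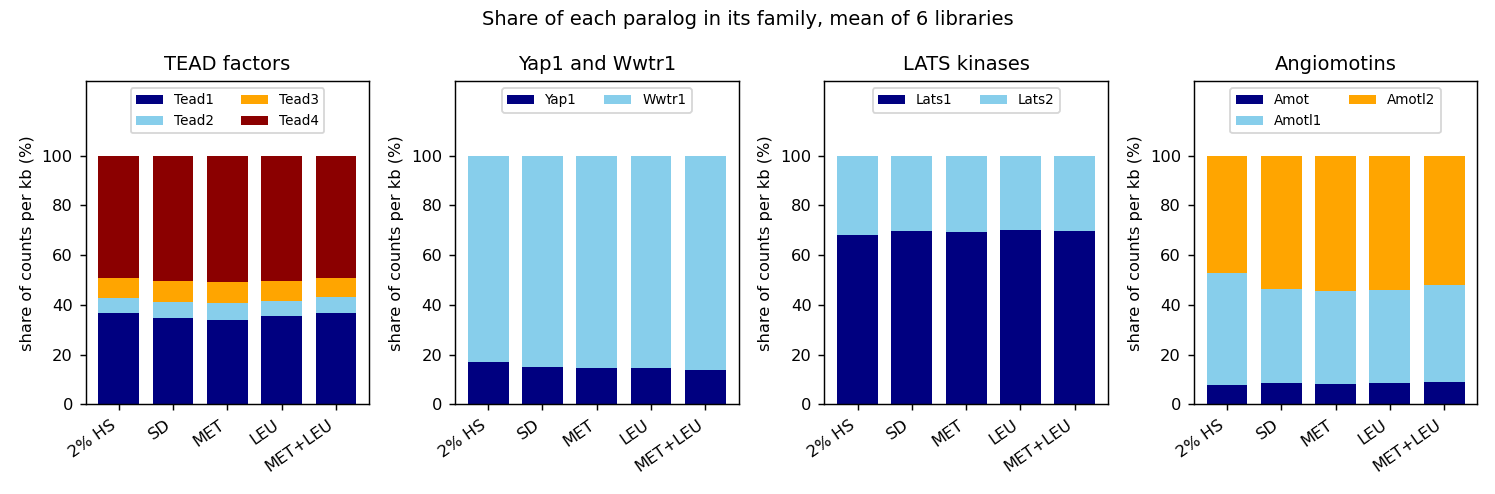
Share of each paralog in the summed counts per kilobase of its family, in percent, as the mean of 6 libraries in each group. Stacked bars reach 100%. The Amotl1 share is 45.3% in 2% HS and 37.5% in SD, and the Wwtr1 share is above 83% in all groups. Lats2 reads may be missing from exons shared with another gene, so the LATS shares are uncertain.

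The targets went in both directions. Ccn2 (chr10:24595442-24598683, plus strand), formerly Ctgf, a profibrotic matricellular protein, had a lowest, median and highest level of 98.0, 113 and 122 CPM in 2% HS and of 45.5, 53.5 and 57.7 CPM in SD. Every SD library was far under every 2% HS library, and Ccn2 fell by 1.07 on the log2 scale (SE 0.061, adjusted p = 1.02e-17), to 0.475 of its level in serum. An antisense gene, Gm15270, overlaps 23.2% of the Ccn2 exon bases, with a median count of 7 against 848 for Ccn2. Ccn1 (chr3:145646976-145649981, minus strand), formerly Cyr61 and the closest relative of Ccn2 in the list, had 150.0, 155 and 168 CPM in 2% HS and 187, 213 and 251 CPM in SD. The SD libraries were wide apart from each other but all above the 2% HS libraries, and Ccn1 rose by 0.47 (SE 0.043, adjusted p = 1.42e-12). Ankrd1 (chr19:36111961-36120099, minus strand) had 236, 251 and 264 CPM in 2% HS and 291, 330.5 and 341 CPM in SD. Again the groups did not overlap, and Ankrd1 rose by 0.37 (SE 0.061, adjusted p = 1.82e-05).

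**Figure D4:**
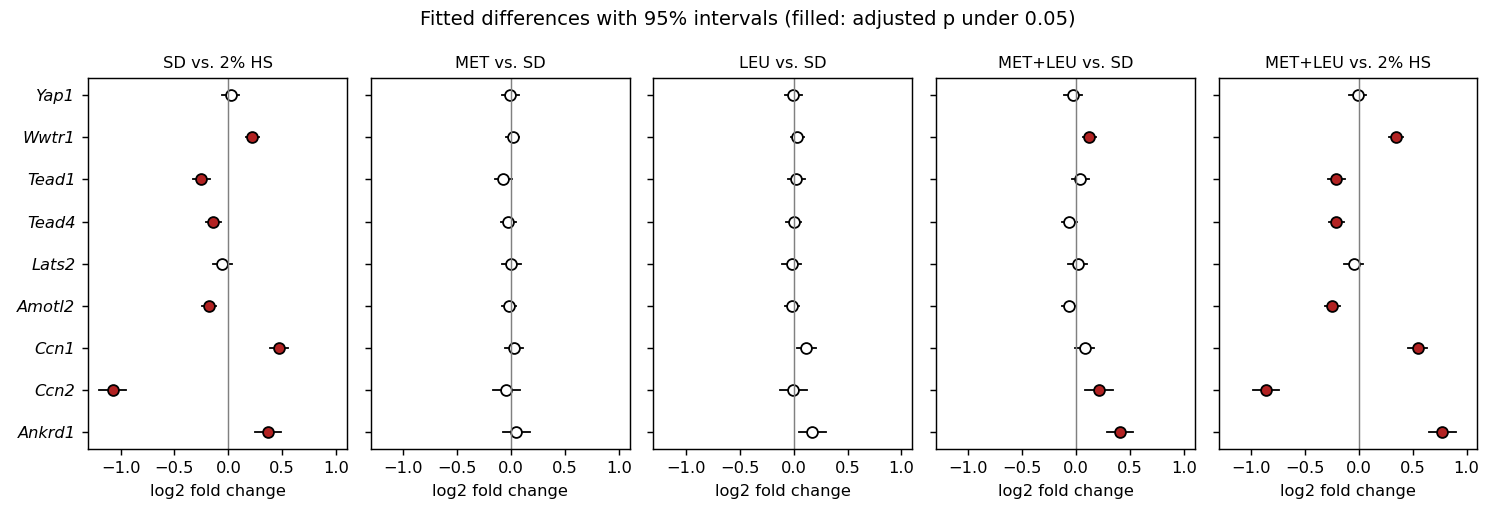
Fitted log2 fold change of the 9 genes in 5 comparisons, with 95% intervals as horizontal bars. Filled points passed an adjusted p of 0.05 in edgeR. In SD vs. 2% HS values run from -1.07 (Ccn2) to 0.47 (Ccn1), and in MET vs. SD and LEU vs. SD no point is filled.

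Among other genes of the pathway, as among all genes, calls in SD vs. 2% HS went in both directions. Of 27 other Hippo pathway genes 26 were tested (Wwc1 was too low). Of these, 3 rose and 6 fell (of all genes, 13.9% rose and 13.9% fell), with a median log2 fold change of 0.03. The count of 9 is near the share over all genes (27.8%). Amotl1 had the largest change. The protocadherin pair Dchs1 and Fat4, ligand and receptor upstream of the cascade, rose by 0.42 (SE 0.135, adjusted p = 0.0139) and 0.42 (SE 0.087, adjusted p = 0.000173) from low levels, 3.48 to 4.69 CPM for Dchs1 and 9.88 to 13.2 CPM for Fat4. Rassf1, a scaffold of the MST kinases, rose by 0.33 (SE 0.048, adjusted p = 4.57e-07). Mob1b, an adaptor that activates LATS, fell by 0.29 (SE 0.047, adjusted p = 1.76e-06). Vgll3 and Vgll4, TEAD cofactors, and the kinase Taok1 also fell.

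Of 17 other YAP target genes, 7 rose and 5 fell (of all genes, 13.9% rose and 13.9% fell), with a median log2 fold change of 0.03. F3, tissue factor, rose by 1.05 (SE 0.142, adjusted p = 5.60e-08) from a mean of 2.83 to 5.87 CPM. Ccdc80, a matrix-binding protein, rose by 0.59 (SE 0.036, adjusted p = 3.60e-18) from 287 to 430.2 CPM, and Asap1, a regulator of Arf proteins, by 0.27 (SE 0.043, adjusted p = 2.12e-06). Nt5e, the ectonucleotidase CD73, fell by 0.50 (SE 0.112, adjusted p = 0.000419), and the transmembrane protein Crim1 and the kinase Nuak2 fell by 0.30 each (adjusted p = 0.00207 and 0.0263). Axl, Igfbp3, Ptpn14 and Tgfb2 also rose, and Rbms3 and Myof also fell. Neither the list nor the pair of CCN genes moved as 1 group.

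**Figure D5:**
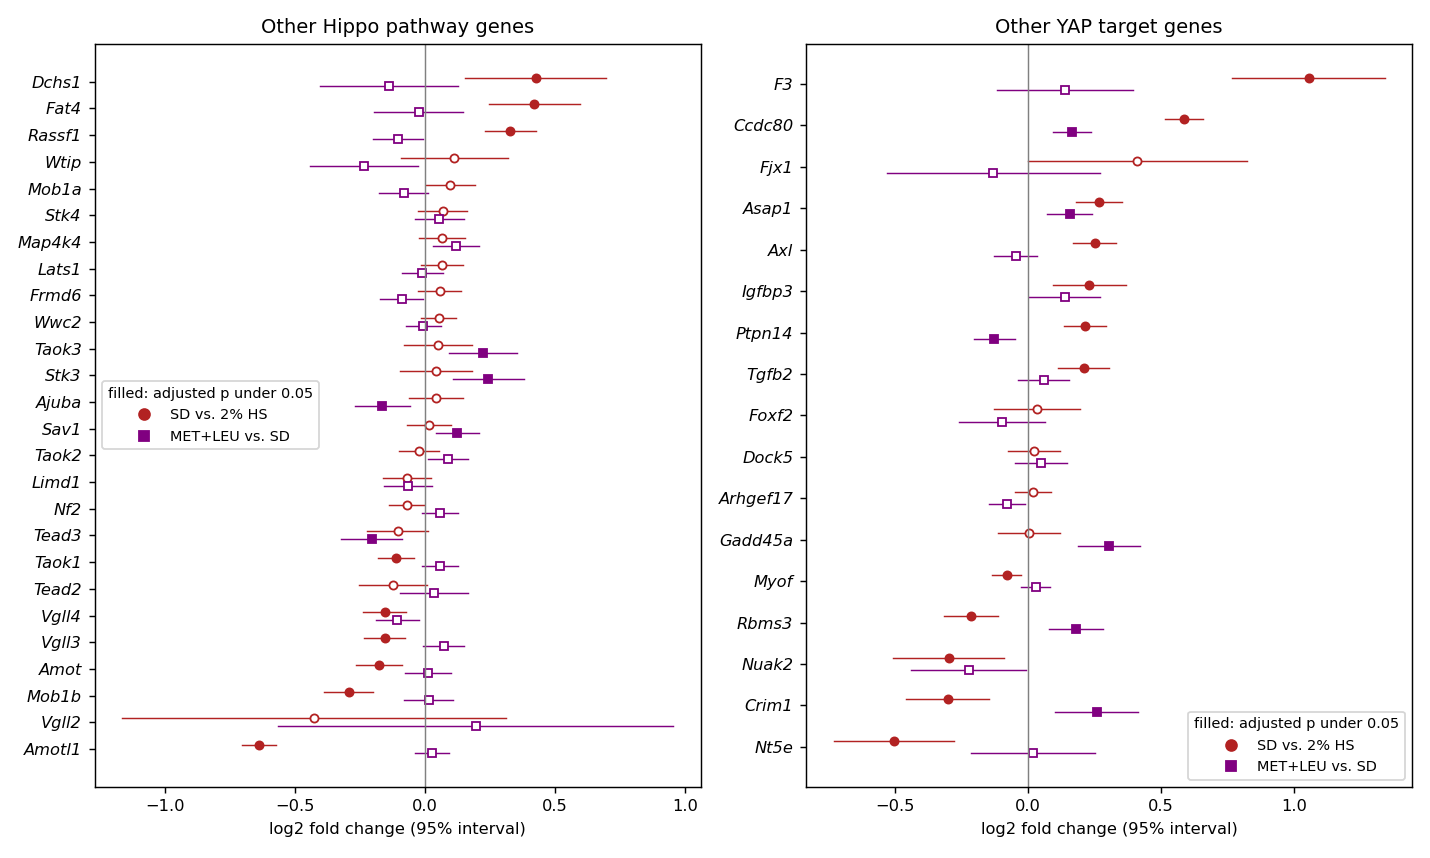
Fitted log2 fold change with 95% interval for 26 other Hippo pathway genes (left) and 17 other YAP target genes (right), in SD vs. 2% HS (red circles) and MET+LEU vs. SD (purple squares). Filled symbols passed an adjusted p of 0.05. In SD vs. 2% HS the range is -0.64 (Amotl1) to 0.42 (Dchs1) on the left and -0.50 (Nt5e) to 1.05 (F3) on the right.

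MET vs. SD and LEU vs. SD ask what each agent alone did under serum deprivation, and both use the same SD libraries. None of the 9 genes passed in MET vs. SD by edgeR (0 at an unadjusted p under 0.05, and 0 by DESeq2), where 0.157% of all genes passed. The fitted log2 fold changes ran from -0.07 for Tead1 (95% interval -0.15 to 0.01) to 0.05 for Ankrd1 (-0.07 to 0.17). Ankrd1 had 299, 339 and 352 CPM in MET (lowest, median and highest), and 3 of the MET libraries were above all SD libraries.

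In LEU vs. SD none of the 9 passed by edgeR either (2 at an unadjusted p under 0.05, and 0 by DESeq2), where 0.553% of all genes passed. These were Ankrd1 and Ccn1. Ankrd1 had 345, 360 and 392 CPM in LEU (lowest, median and highest), all 6 libraries above the highest SD library, with a log2 fold change of 0.17 (95% interval 0.05 to 0.30, adjusted p = 0.256). It passed in limma-voom with sample quality weights (adjusted p = 0.0194), without the filter on low counts (adjusted p = 0.00416), with only LEU and SD in the model (adjusted p = 0.0133) and without MET+LEU replicate 6 (adjusted p = 0.00468). Ccn1 had 221, 234 and 250 CPM in LEU, which overlapped SD, and a log2 fold change of 0.12 (95% interval 0.03 to 0.20, adjusted p = 0.239). It passed in the weighted limma-voom (adjusted p = 0.0335) and without SD replicate 1 (0.17, adjusted p = 0.0202), and was 0.08 without SD replicate 6 (adjusted p = 0.509). For the other 7 genes the fitted values lay between -0.02 and 0.03, and the interval for Ccn2 was -0.13 to 0.12. Among other Hippo pathway genes and other YAP target genes, none passed by edgeR in either comparison. At an unadjusted p under 0.05 there were 1 and 3 in MET vs. SD and 0 and 2 in LEU vs. SD, and DESeq2 called 1 YAP target gene in LEU vs. SD.

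MET+LEU vs. SD asks what the combination did. Ankrd1, Ccn2 and Wwtr1 rose, so 3 of the 9 genes passed in the higher direction and 0 in the lower direction. Of all genes 18.4% passed, 10.6% higher and 7.8% lower, and the median log2 fold change was 0.04 over the 9 genes and -0.01 over all. These changes are relative to the TMM scaling. With library totals in its place, a choice made after the data were seen, the median over all genes moved to -0.10, and calls over all genes went from 1690 higher and 1241 lower to 616 higher and 3158 lower.

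Ankrd1 had the largest change, with a lowest, median and highest level of 397, 403 and 553 CPM in MET+LEU against 291, 330.5 and 341 CPM in SD. All 6 MET+LEU libraries were above all SD libraries, and they were also above all MET and LEU libraries. Ankrd1 rose by 0.41 on the log2 scale (SE 0.060, adjusted p = 2.17e-05). The highest library was MET+LEU replicate 6, and without it the rise was 0.32 (adjusted p = 4.24e-08). With library totals Ankrd1 still passed.

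Wwtr1 had 364, 379 and 407 CPM in MET+LEU (lowest, median and highest), all above the highest SD library at 360.0 CPM. It rose by 0.12 (SE 0.031, adjusted p = 0.00327), and by 0.10 without MET+LEU replicate 6 (adjusted p = 0.0168). Ccn2 had 51.8, 60.6 and 68.7 CPM, with 5 of 6 libraries above the highest SD library, and rose by 0.21 (SE 0.062, adjusted p = 0.0148). Without MET+LEU replicate 6 Ccn2 rose by 0.25. Its MET+LEU libraries stayed below the lowest 2% HS library at 98.0 CPM. Both calls were less steady than that of Ankrd1. With library totals the values were 0.02 for Wwtr1 (adjusted p = 0.720) and 0.12 for Ccn2 (adjusted p = 0.277). With only MET+LEU and SD in the model the adjusted p was 0.0581 for both, and without MET+LEU replicate 1 Ccn2 stood at 0.17 (adjusted p = 0.0594). With the replicate number added to the model as a block, the adjusted p was 0.00284 for Wwtr1 and 0.000892 for Ccn2.

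The other 6 genes did not pass in MET+LEU vs. SD. Amotl2 (218, 238 and 251 CPM in MET+LEU) had a log2 fold change of -0.07 (95% interval -0.13 to -0.0004, adjusted p = 0.157) and Tead4 (157, 169 and 175 CPM) of -0.07 (-0.14 to 0.00, adjusted p = 0.179), and both passed with library totals, at -0.16 each. Ccn1 (217, 231 and 236 CPM) had 0.08 (-0.01 to 0.16, adjusted p = 0.202) and passed without SD replicate 1 (0.12, adjusted p = 0.0201), but was 0.04 without SD replicate 6 (adjusted p = 0.550). Tead1 (441, 475 and 508 CPM) had 0.04 (-0.04 to 0.12), Yap1 (109, 119 and 121 CPM) -0.03 (-0.11 to 0.05) and Lats2 (50.2, 54.8 and 60.5 CPM) 0.01 (-0.08 to 0.10). Tead1, Lats2 and Ccn1 had negative values with library totals.

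Of the 26 other Hippo pathway genes tested, 3 rose and 2 fell in MET+LEU vs. SD, with a median log2 fold change of 0.01. The count of 5 is near the share over all genes (18.4%, 10.6% higher and 7.8% lower). Stk3, an MST kinase, rose by 0.24 (SE 0.068, adjusted p = 0.00926), the kinase Taok3 by 0.22 (SE 0.064, adjusted p = 0.0119) and Sav1, the scaffold of the MST kinases, by 0.12 (SE 0.041, adjusted p = 0.0298). Tead3 fell by 0.21 (SE 0.059, adjusted p = 0.0106) and Ajuba, a LIM protein that restrains LATS, by 0.17 (SE 0.053, adjusted p = 0.0216). In each of these 5 genes the libraries of the groups overlapped. The count of 5 was 2 without MET+LEU replicate 6, 3 without SD replicate 1, 8 without MET+LEU replicate 3, and 0 in limma-voom with sample quality weights or with only these groups in the model. With library totals 0 rose and 7 fell. Stk4 (0.05, 95% interval -0.04 to 0.15), Lats1 (-0.01, -0.09 to 0.07) and Tead2 (0.03, -0.10 to 0.17) did not pass.

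Of the 17 other YAP target genes, 5 rose and 1 fell (of all genes, 10.6% rose and 7.8% fell), with a median of 0.05. Gadd45a, a stress-induced growth arrest gene, rose by 0.30 (SE 0.057, adjusted p = 0.000248), Crim1 by 0.26 (adjusted p = 0.0148), Rbms3, an RNA-binding protein, by 0.18 (adjusted p = 0.00815), Ccdc80 by 0.17 (adjusted p = 0.000780) and Asap1 by 0.16 (adjusted p = 0.00663). Ptpn14, a phosphatase that binds YAP, fell by 0.13 (adjusted p = 0.0185). Of these, the groups were apart only for Ccdc80, whose mean was 430.2 CPM in SD and 483 CPM in MET+LEU. With library totals 1 rose and 3 fell, and with only these groups in the model 2 rose.

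The interaction term asks whether the combination differed from the sum of the changes with each agent. It was not called for any of the 9 genes by edgeR (2 at an unadjusted p under 0.05), where 0.0503% of all genes passed. DESeq2 called 0, but it gave no adjusted p for Yap1, Lats2 and Ccn2, so its count leaves these genes out. The highest fitted terms were 0.26 for Ccn2 (95% interval 0.08 to 0.44, adjusted p = 0.336) and 0.18 for Ankrd1 (0.01 to 0.36, adjusted p = 0.539). The Ankrd1 term was 0.09 without MET+LEU replicate 6 (adjusted p = 0.724) and 0.09 with library totals (adjusted p = 0.667). No other Hippo pathway gene or other YAP target gene passed (3 and 0 at an unadjusted p under 0.05). MET+LEU was not tested against MET or LEU directly.

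MET+LEU vs. 2% HS asks how far treated myotubes stood from those kept in serum. Wwtr1, Ccn1 and Ankrd1 rose and Tead1, Tead4, Ccn2 and Amotl2 fell, 3 and 4 of the 9 genes, where 42.3% of all genes passed, 22.1% higher and 20.3% lower. This comparison shares the 2% HS libraries with SD vs. 2% HS and the MET+LEU libraries with MET+LEU vs. SD. Ankrd1 rose by 0.77 (SE 0.061, adjusted p = 7.10e-12), to 1.71 times its level in serum, where SD had risen by 0.37. Without MET+LEU replicate 6 the rise of Ankrd1 was 0.69. Wwtr1 rose by 0.35 (SE 0.031, adjusted p = 5.01e-13) and Ccn1 by 0.55 (SE 0.043, adjusted p = 9.02e-15). Ccn2 fell by 0.86 (SE 0.060, adjusted p = 4.86e-15), where the value for SD was -1.07. Tead1 fell by 0.21 (adjusted p = 2.01e-05), Tead4 by 0.21 (adjusted p = 2.63e-06) and Amotl2 by 0.25 (adjusted p = 3.42e-08). Without MET+LEU replicate 6 the values were 0.32 for Wwtr1, -0.83 for Ccn2, -0.23 for Tead1, -0.19 for Tead4 and -0.22 for Amotl2. In all 7 the MET+LEU libraries did not overlap those of 2% HS. The share of all genes whose groups were apart was not counted in this or any other comparison, so this does not set the 7 genes apart from other genes. Yap1 (-0.01, 95% interval -0.09 to 0.07) and Lats2 (-0.05, -0.13 to 0.04) did not pass. With library totals the median over all genes moved from -0.01 to -0.11, calls over all genes went from 3510 higher and 3224 lower to 1957 and 4772, and Lats2 passed at -0.14. Among other Hippo pathway genes 7 rose and 6 fell, and among other YAP target genes 7 rose and 2 fell, where library totals gave 3 and 11 and then 6 and 5.

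Genes with the most similar pattern over the 30 libraries were sought among 12697 tested genes (mean log2 CPM not under 1). The correlations are descriptions over libraries that share their group and their treatment day, so they mostly restate the group differences. They are also the highest of many, and how high this choice alone would bring them was not tested. Nearest to Ccn2 were Glul, glutamine synthetase (r = 0.98), Gpx3, an extracellular glutathione peroxidase (r = 0.98), and Amotl1 (r = 0.97), and with group means removed these were 0.75, 0.64 and 0.54. Nearest to Ankrd1 were Aebp1, Igfbp7 and Itm2b (r = 0.94 each), and to Wwtr1 Itm2b (r = 0.94), Aebp1 (r = 0.94) and Ccdc80 (r = 0.93). Ccn1 was nearest to Ly6d, Sfrp2 and Ccdc102a (r = 0.95 each). Tead1 was nearest to Usf3, Naca and Atf6 (r = 0.92 to 0.93), Tead4 to Ccnd3, Iffo1 and Ctif (r = 0.90), and Amotl2 to Bcam, Actn1 and Igdcc4 (r = 0.92 to 0.93). Yap1 and Lats2, which edgeR called in none of the comparisons, had lower values over the 30 libraries. The nearest were Fbxl17, Rnf114 and Spin4 for Yap1 (r = 0.61 to 0.63) and Gm42986, Rlf and Zfp280c for Lats2 (r = 0.69 to 0.70). With group means removed, these were 0.60 to 0.63 for Yap1 and 0.65 to 0.71 for Lats2. The neighbours named above then had 0.28 to 0.63 for Wwtr1, 0.35 to 0.47 for Ccn1, and 0.63 to 0.79 for Tead1, Tead4, Ankrd1 and Amotl2.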

How the data were processed

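RNA was measured in 30 libraries of C2C12 myotubes, 5 groups of 6, with groups and doses taken from the sample labels. The deposited values were raw counts per Ensembl gene, whole numbers without normalization, made by the authors from ribosome-depleted, stranded total RNA libraries read with 150 × 150 bp. The submitters' processing notes name cutadapt 1.16, STAR 2.7.6a, featureCounts 1.6.3, DESeq2 1.30.1 and build GRCm38, and the strand setting of the counting was not given in the sources used here. Of 55487 identifiers, 260 did not match GENCODE M21 (build GRCm38), which gave symbols, coordinates and exon lengths.

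The test was the robust quasi-likelihood F test of edgeR 4.0.16 (R 4.3.3), fitted to all 30 libraries with 1 mean per group and TMM scaling. It covered 15907 genes, those that filterByExpr kept at a minimum count of 10 and a minimum total of 15. Calls are at a Benjamini-Hochberg adjusted p under 0.05 over all genes tested. Levels between genes are TMM-scaled CPM per kilobase of exon, used in place of the TPM first planned because TPM moves with the composition of each library. The length was that of all annotated exons of a gene, whichever transcripts were expressed. DESeq2 1.42.0 and limma 3.58.1 (voom with sample quality weights) were alternatives, besides other scalings, filters, models and leaving out each library. On data simulated for SD vs. 2% HS over 15907 genes with 200 changed 1.5-fold, the test recovered 130 with the right sign and made 4 false calls. The lowest chi-square per degree of freedom between replicates of a group was 2.33, so no library was a copy of another in its group. Libraries of different groups were not compared in this way.

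The 9 genes, the lists of other Hippo pathway, YAP target and marker genes, and the tests were chosen with earlier results of these data known. Text names the 9 genes, up to 6 called genes with the largest change per list (for serum deprivation and for the combination), Lats1, Stk3, Stk4, Tead2 and Tead3, and for each of the 9 the 3 genes of highest correlation. Other called genes listed by name alone, Tcf21, Wwc1 and Myog were named after their values were seen. Promoter windows came from RefSeq (GRCm38.p6).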

Additional observations from a re-analysis of the deposited data

Results flagged for a closer look

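Ankrd1 in MET+LEU replicate 6 was 553 CPM, far above the other 5 libraries of its group, with a gap of 0.864 of the range of the group. This is the library with the high share of ribosomal RNA and the low scaling factor, and the part of these in the value was not tested. Ankrd1 in MET replicate 2 was 299 CPM, below the other 5, with a gap of 0.667 of the range. Dixon's test was applied to 45 groups of 6, of which these 2 were past its 95% limit, and chance flags about 1 in 20 groups.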

How the results depend on the processing

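The 7 calls among the 9 genes in the comparisons of SD and of MET+LEU with 2% HS kept their direction and threshold under every setting tried. Calls in MET+LEU vs. SD and LEU vs. SD did not, and the cause was not tested. With only the compared groups in the model, MET+LEU vs. SD gave 1 of the 9 genes, 0 other Hippo pathway genes and 2 other YAP target genes, and limma-voom, which here also weighted libraries by quality, gave 0 other Hippo pathway genes. In LEU vs. SD, where the edgeR counts were 0, limma-voom gave 2 of the 9 genes, and 1 passed with no filter on low counts or with only the compared groups. For other YAP target genes 1 passed there in DESeq2, in limma-voom, with no filter, with only the compared groups and with the replicate block. The replicate block changed no other count by over 1.5 times. Over all genes tested, same-numbered libraries did not deviate together (mean correlation 0.016, from -0.091 to 0.142 over 60 pairs), which cannot settle pairing for single genes. Ankrd1 was lowest in replicate 2 in SD, MET, LEU and MET+LEU (291, 299, 345 and 397 CPM), but in replicate 5 in 2% HS (236 CPM). Ccn2 was lowest in replicate 6 in the same serum-free groups (45.5, 46.6, 46.1 and 51.8 CPM), but also in replicate 5 in 2% HS (98.0 CPM). With the block in edgeR, the adjusted p in MET+LEU vs. SD was 0.000892 for Ccn2 and 1.39e-07 for Ankrd1. For Ankrd1 in LEU vs. SD it was 0.0617.

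Under these settings signs turned only for values that were not called. In LEU vs. SD, Yap1 was 0.00048 with DESeq2 size factors, 0.00061 with upper-quartile scaling, 0.00061 in DESeq2 and 0.0013 in limma-voom. Ccn2 there was 0.0017, 0.0019, 0.0021 and 0.016 in the same order, and 0.00033 with only the compared groups. In MET+LEU vs. SD, Lats2 was -0.0031 with upper-quartile scaling, -0.023 in limma-voom and -0.090 with library totals. Limma-voom also gave Yap1 0.0043 and Lats2 -0.013 in MET vs. SD, and Yap1 0.0087 in MET+LEU vs. 2% HS. Library totals gave Tead4 -0.017 in LEU vs. SD, Tead1 -0.064 and Ccn1 -0.022 in MET+LEU vs. SD, and interaction terms of -0.013 for Wwtr1, -0.0029 for Tead1 and -0.060 for Lats2. Over all genes they gave 28 higher and 4 lower calls in MET vs. SD (12 and 13 with TMM), 47 and 42 in LEU vs. SD (37 and 51), and 1 and 2 interactions (6 and 2).

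Leaving out each library in turn, Yap1 ranged from -0.00011 to 0.046 in SD vs. 2% HS, -0.023 to 0.019 in MET vs. SD, -0.021 to 0.012 in LEU vs. SD and -0.031 to 0.015 in MET+LEU vs. 2% HS. Lats2 ranged from -0.026 to 0.021 in MET vs. SD, -0.038 to 0.0023 in LEU vs. SD, -0.023 to 0.031 in MET+LEU vs. SD and -0.016 to 0.054 in the interaction. Ccn1 ranged from -0.0083 to 0.078 in MET vs. SD. In LEU vs. SD the ranges were -0.015 to 0.022 for Tead4, -0.042 to 0.034 for Ccn2 and -0.022 to 0.0060 for Amotl2. The count in LEU vs. SD ranged from 0 to 1 for the 9 genes (1 without SD replicate 1 or without MET+LEU replicate 6) and from 0 to 1 for other YAP target genes (1 without SD replicate 3), and in MET+LEU vs. SD from 2 to 4 for the 9 genes and from 2 to 8 for other Hippo pathway genes.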
